A study of Homo sapiens with 6 samples.

Results

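The epithelial junction and mesenchymal transition genes were 40 genes picked by name from the 20020 genes of the deposited count table. They comprise 6 keratins, 6 genes grouped under the adherens junction, 10 of the tight junction and 6 of the desmosome. The others are 4 regulators of the epithelial state, 5 transition factors and 3 mesenchymal markers. EPCAM, a surface adhesion protein of epithelia, was placed in the adherens junction group. RNA-seq was done in HCT116, a human colorectal carcinoma cell line, in 3 libraries of CAD-KO+IR cells and 3 of sgVec+IR cells. CAD-KO cells are a stable line in which a guide RNA in the lentiCRISPRv2 plasmid targets CAD (caspase-activated DNase, gene DFFB), and sgVec cells carry the vector alone. Both groups were irradiated (IR, 8 Gy) and sampled at 24 h, so the comparison asks what the loss of CAD does to these genes in irradiated cells. Only 1 knockout line was sequenced, unirradiated cells were not analysed here, and the labels do not say whether the 3 libraries of a group came from separate cultures. The p-values therefore measure the spread between these libraries, which may be technical.

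Epithelial cells hold to each other through adherens junctions built on E-cadherin (CDH1), through tight junctions of claudins, occludin and ZO proteins, and through desmosomes, which anchor the keratin filaments. In the epithelial-mesenchymal transition, factors of the SNAI, ZEB and TWIST families repress CDH1 and other junction genes, and mesenchymal genes such as vimentin (VIM) and fibronectin (FN1) are expressed. SNAI and ZEB factors bind the E-box CAGGTG, read CACCTG on the other strand, and the regulators GRHL2, OVOL1, ESRP1 and ESRP2 uphold the epithelial program. HCT116 is known as an epithelial line that expresses CDH1.

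CDH1 and KRT23 were lower, and ZEB1, SNAI2, TWIST1 and KRT18 higher, in every CAD-KO+IR library than in every sgVec+IR library. However, no member was a differentially expressed gene (DEG) over all 6 libraries. Genes counted as DEGs where the quasi-likelihood test of edgeR gave an adjusted p below 0.05 (Benjamini-Hochberg, over all 12925 tested genes) and the fold change reached 1.5. Of the 40 members, 36 had enough counts to be tested, and 0 were higher DEGs and 0 lower DEGs, against a background of 0.00774% of all tested genes called higher and 0.0232% called lower. At an unadjusted p under 0.05, edgeR called 1 member higher (ZEB1) and 3 lower (KRT23, CDH1 and GRHL2), where the background was 1.08% higher and 1.76% lower. In DESeq2, 0 members were DEGs, and CDH1 had an adjusted p of 0.00816 with a fold change under 1.5. The share of all genes called by DESeq2 is not given here, and the edgeR shares do not stand for it. The log2 fold changes of the 36 members, CAD-KO+IR over sgVec+IR, ran from −1.38 to 1.54, with 17 above 0 and 19 below, and their median of −0.03 lay beside −0.01 for all genes tested. In 9 of the 36 tested members the CPM values (counts corrected for library size by TMM) of the groups did not overlap. They were KRT18, ZEB1, SNAI2 and TWIST1 on the higher side and KRT23, KRT80, CDH1, ESRP1 and GRHL2 on the lower side. Over all genes 5.23% did not overlap on the higher side and 5.01% on the lower side. The members were chosen with earlier results of these data known, so these shares are a description and no test of the set.

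**Figure D1:**
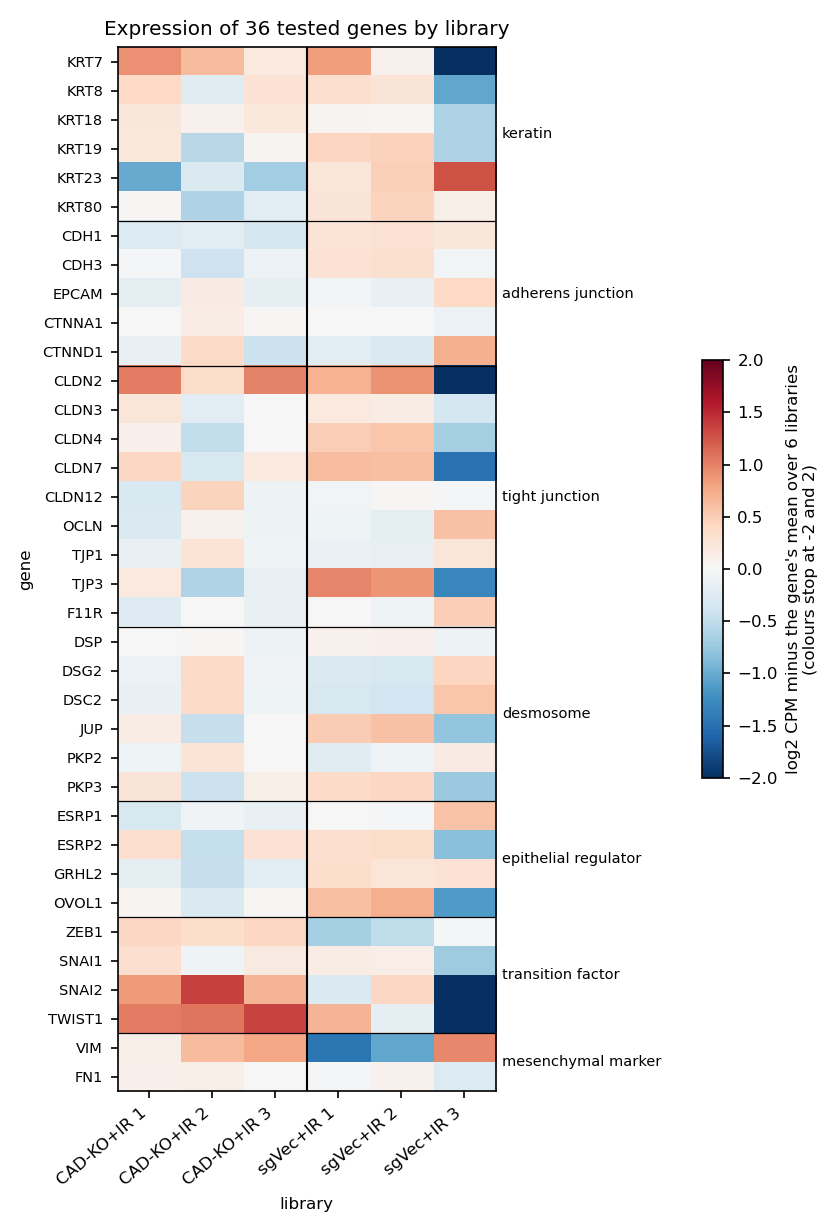
Each cell gives the log2 CPM of 1 of the 36 tested genes (rows, by role) in 1 library (columns) minus the gene's mean over the 6 libraries, with colours that stop at −2 and 2. The columns of sgVec+IR 3 and, less so, CAD-KO+IR 2 run against those of the other libraries of their group in many rows, while ZEB1 and CDH1 follow the groups.

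Library totals ran from 14032994 to 19574144 counts. Library sgVec+IR 3 stood apart, with 7561 genes at 0 against 4577 to 5232 in the other 5 libraries, and its log2 CPM correlated across genes at 0.890 and 0.886 with sgVec+IR 1 and 2, which correlated at 0.993 with each other. Among the CAD-KO+IR libraries, replicate 2 correlated at 0.969 and 0.975 with replicates 1 and 3. The targeted gene DFFB had 185, 192 and 217 counts in CAD-KO+IR and 357, 335 and 297 in sgVec+IR, a log2 fold change of −1.02 (SE, the standard error of the fit, 0.193) with an adjusted p of 0.550 in edgeR and 4.58e-04 in DESeq2. The identity of the cells was read from marker genes. The 11 markers of colon epithelium summed to 2768.0 to 3939.8 CPM in CAD-KO+IR and 2081.0 to 4033.4 CPM in sgVec+IR, nearly all of it from KRT8, KRT18, KRT19, EPCAM and CDH1. The intestinal markers CDH17, VIL1 and LGALS4 had at most 15 counts in a library, KRT20 had 7 to 46, and CDX1 was at 0 in all 6, whereas the intestinal factor CDX2 had 395, 288 and 322 counts in CAD-KO+IR and 401, 374 and 74 in sgVec+IR.

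2 further fits bear on the libraries that stood apart. limma-voom with sample weights kept all 6 libraries and gave sgVec+IR 3 a weight of 0.0404 and CAD-KO+IR 2 a weight of 0.154, against 1.79 to 6.75 for the others. The fit of 4 libraries left out both and was chosen after seeing the data. Each called 3 members higher (ZEB1, TWIST1 and VIM) and 4 lower (KRT23, CDH1, TJP3 and OVOL1). The background was 1.64% higher and 3.51% lower with sample weights, and 1.06% higher and 2.30% lower with 4 libraries. These fits put weight on the most alike libraries of each group, so their p-values rest on a small spread.

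All tested members among the transition factors, and both tested mesenchymal markers, lay above 0 over all 6 libraries, as did 6214 of all 12925 genes tested. The log2 fold changes of ZEB1, SNAI1, SNAI2 and TWIST1 were all above 0, with a median of 1.10 against −0.01 for all genes. Their median was 0.93 without sgVec+IR 3 and 0.83 with 4 libraries. Over all 6 libraries 3 of the 4 did not overlap between groups, against 5.23% of all genes on the higher side. ZEB1 (ENSG00000148516.23, chromosome 10, 31318495 to 31529814 of GRCh38, forward strand) encodes a zinc finger repressor of CDH1. It measured 6.40, 6.17 and 6.43 CPM in the CAD-KO+IR libraries and 3.0, 3.35 and 4.73 CPM in the sgVec+IR libraries. Every CAD-KO+IR library was above every sgVec+IR library, and the knockout libraries differed among themselves by less than the controls did (6.33 ± 0.143 against 3.69 ± 0.912 CPM, SD, n = 3 each). The log2 fold change was 0.79 (SE 0.271), with an unadjusted p of 0.0230 and an adjusted p of 1.0 in edgeR. With sample weights it was 1.01 (adjusted p = 0.00133, limma-voom), and with 4 libraries 1.02 (adjusted p = 0.00144, edgeR). ZEB1 overlaps the antisense gene ZEB1-AS1, and the strand setting of the counting is not given in the sources used here, so reads from the overlap cannot be told apart. CDH1, KRT23, GRHL2, TWIST1, OVOL1 and VIM likewise each overlap an antisense gene.

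SNAI2 (ENSG00000019549.13, chromosome 8), which encodes the repressor Slug, had few reads. It was counted 30, 45 and 25 times in CAD-KO+IR and 11, 17 and 0 times in sgVec+IR, or 1.63, 2.37 and 1.42 against 0.673, 1.16 and 0 CPM. All 3 knockout libraries were higher than the controls, and the 0 came from sgVec+IR 3, where a count of 0 allows up to 0.214 CPM (3 counts, counting error only). The log2 fold change was 1.54 (SE 0.718, edgeR unadjusted p = 0.0675) and came to 0.999 without that library, and SNAI2 was not called by any fit. TWIST1 (ENSG00000122691.13, chromosome 7, 19020991 to 19117672, reverse strand), a helix-loop-helix factor of mesoderm, had 67, 71 and 80 counts in CAD-KO+IR and 46, 22 and 0 in sgVec+IR. This was 3.63, 3.74 and 4.56 CPM against 2.81, 1.51 and 0 CPM, again without overlap and again with the 0 in sgVec+IR 3. Its log2 fold change was 1.41 (SE 0.659, edgeR unadjusted p = 0.0708), or 0.86 without sgVec+IR 3. With sample weights it was 1.05 (adjusted p = 0.0225) and with 4 libraries 0.90 (adjusted p = 0.0295). SNAI1, which encodes Snail, measured 16.4, 12.3 and 14.8 CPM in CAD-KO+IR and 14.4, 14.3 and 7.90 CPM in sgVec+IR. These ranges overlapped, with a log2 fold change of 0.24 (SE 0.283) that came to 0.02 without sgVec+IR 3. ZEB2 had 1 count in CAD-KO+IR 1 and 0 in the other 5 libraries, and 0 counts over a group allow up to 0.0670 CPM in sgVec+IR.

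**Figure D2:**
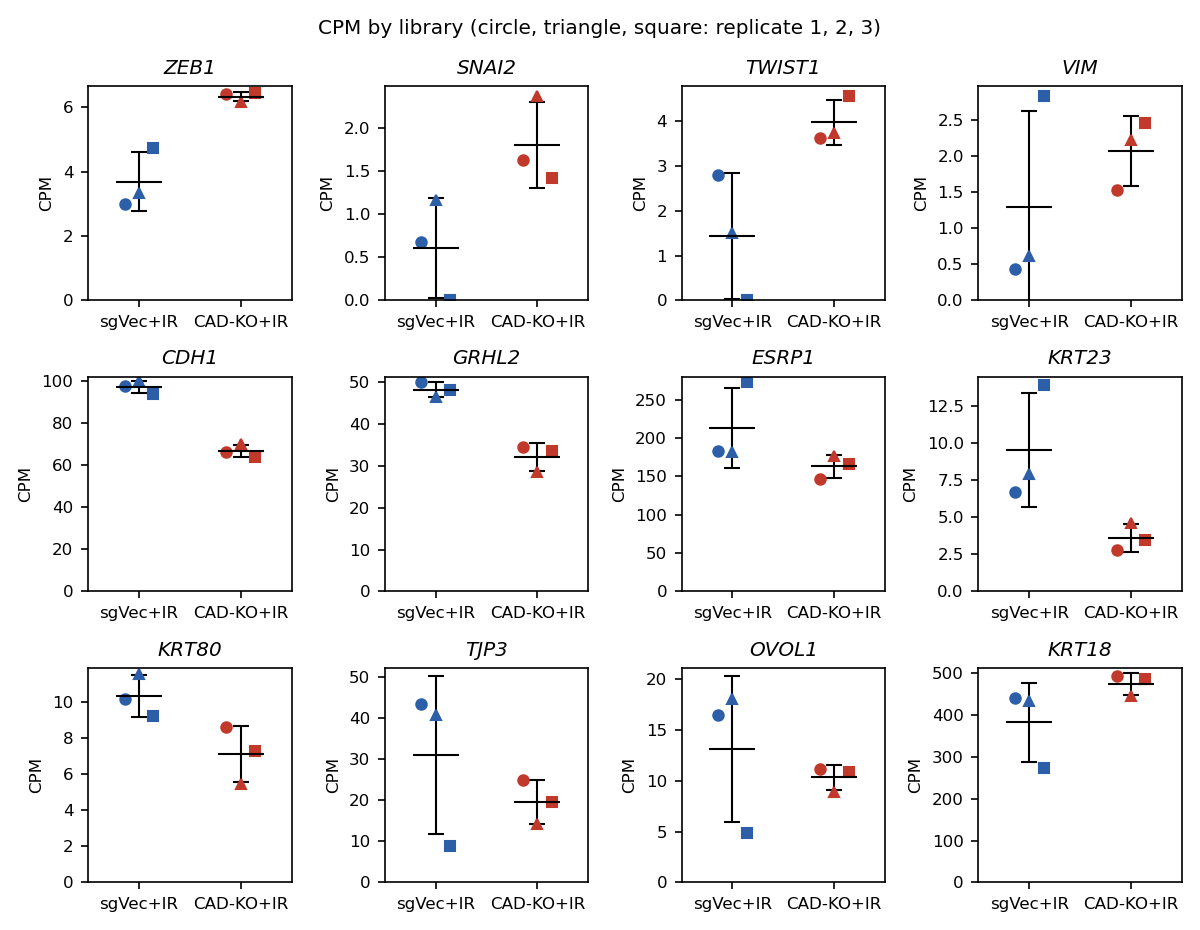
CPM (vertical axis, from 0) of 12 genes in sgVec+IR (blue) and CAD-KO+IR (red), with 1 point for each library and the mean and SD of 3 libraries as lines, the lower bar of VIM in sgVec+IR being cut at 0. ZEB1, SNAI2, TWIST1 and KRT18 lie higher and CDH1, GRHL2, ESRP1, KRT23 and KRT80 lower in all 3 CAD-KO+IR libraries. By contrast, the square of sgVec+IR 3 decides the spread of VIM, TJP3 and OVOL1.

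Of the mesenchymal markers, VIM and FN1 were tested. VIM (ENSG00000026025.16, chromosome 10, 17228259 to 17237593, forward strand) encodes the intermediate filament of mesenchymal cells. Its counts were 28, 42 and 43 in CAD-KO+IR and 7, 9 and 40 in sgVec+IR, which is 1.52, 2.21 and 2.45 CPM against 0.428, 0.616 and 2.82 CPM. The first 2 controls were below all 3 knockout libraries and sgVec+IR 3 was above them all. Over all 6 libraries the log2 fold change was 0.72 (SE 0.659, adjusted p = 1.0, edgeR). It was 1.98 without sgVec+IR 3 (adjusted p = 0.268, edgeR), 2.04 with sample weights (adjusted p = 0.00255) and 1.92 with 4 libraries (adjusted p = 0.00430). The size thus rests on sgVec+IR 3, and VIM was called only in the 2 fits that also left out or down-weighted CAD-KO+IR 2. FN1, a secreted glycoprotein of the matrix, measured 44.7, 45.1 and 41.6 CPM in CAD-KO+IR and 40.7, 44.1 and 34.3 CPM in sgVec+IR, overlapping ranges with a log2 fold change of 0.14 (SE 0.174). TNC, which encodes the matrix protein tenascin C, was not tested. It had 9, 19 and 4 counts in CAD-KO+IR and 5, 8 and 0 in sgVec+IR.

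The adherens junction genes held the member with the lowest unadjusted p of the 36. CDH1 (ENSG00000039068.20, chromosome 16, 68737225 to 68835548, forward strand) measured 66.3, 69.8 and 63.9 CPM in CAD-KO+IR and 97.6, 99.7 and 93.9 CPM in sgVec+IR. The 2 groups were far apart and the libraries that stood apart elsewhere lay among their own group (66.7 ± 2.95 against 97.1 ± 2.90 CPM, SD, n = 3 each). The log2 fold change was −0.54 (SE 0.146, edgeR unadjusted p = 0.00752, adjusted p = 1.0). In DESeq2 it was −0.54 (adjusted p = 0.00816), with sample weights −0.61 (adjusted p = 4.61e-05, limma-voom) and with 4 libraries −0.59 (adjusted p = 1.87e-08, edgeR). Leaving out any 1 library in edgeR gave −0.58 to −0.50, with the lowest adjusted p at 0.248. The 1.46-fold difference of CDH1 mRNA lay just under the fold change threshold with 6 libraries and just over it with sample weights and with 4 libraries. In bulk RNA, fewer cells expressing a gene and less RNA per cell cannot be told apart.

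The cadherin CDH2 (N-cadherin), the usual mesenchymal counterpart of CDH1, was barely counted in either group, with 8, 3 and 4 counts in CAD-KO+IR and 5, 2 and 0 in sgVec+IR, and was not tested. CDH3 (P-cadherin) measured 225.2, 172.0 and 212.6 CPM in CAD-KO+IR and 280.0, 287.3 and 221.2 CPM in sgVec+IR, where only CAD-KO+IR 1 overlapped the controls. Its log2 fold change was −0.37 (SE 0.178). EPCAM, a surface adhesion protein of epithelia, measured 226.9, 285.8 and 226.2 CPM against 246.3, 231.4 and 337.4 CPM. These ranges overlapped, with a log2 fold change of −0.14 (SE 0.199), and both high values were those of CAD-KO+IR 2 and sgVec+IR 3. The catenins CTNNA1 and CTNND1, which link cadherins to actin or hold them at the membrane, had log2 fold changes of 0.10 and −0.17 with overlapping groups.

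Promoter sequence was at hand for 21 of the 40 members, from RefSeq on GRCh38.p14, as the 250 bases before each annotated start. Of their 40 promoters 11 held CAGGTG or CACCTG on either strand (27.5%), against 17.5% of 35116 promoters of all genes and 17.0% of the 21675 promoters of genes in the count table. The promoters with these letters belonged to 9 members. These were CLDN7, OCLN, TJP1, TJP3, DSP, DSG2, DSC2, JUP and ZEB1, and CDH1 was among the members without promoter sequence. With 4 libraries the log2 fold changes of TJP3, CLDN7 and JUP were −0.91, −0.29 and −0.46. Those of DSG2 and DSC2 were 0.22 and 0.24, and those of OCLN, TJP1 and DSP −0.06, 0.03 and −0.14. A relation of the letters to the fold changes was not tested. The windows of TJP3, CLDN7 and JUP are shown as examples of junction genes. That of ZEB1 is shown because a promoter of the factor itself holds the letters too. However, TJP3, CLDN7, JUP and ZEB1 all have other annotated promoters without the letters. Each window is printed 5′ to 3′ on the gene's strand with the E-box letters in capitals.
TJP3, chr19:3721718-3721747, forward strand, first E-box base at −7 from a start: gaggaagaggggCAGGTGcagccgggagct
CLDN7, chr17:7262481-7262510, reverse strand, first E-box base at −20: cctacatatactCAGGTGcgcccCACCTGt
JUP, chr17:41786013-41786042, reverse strand, first E-box base at −54: cgactctggcccCACCTGccgagCAGGTGa
ZEB1, chr10:31318167-31318416, forward strand, first E-box base at −57: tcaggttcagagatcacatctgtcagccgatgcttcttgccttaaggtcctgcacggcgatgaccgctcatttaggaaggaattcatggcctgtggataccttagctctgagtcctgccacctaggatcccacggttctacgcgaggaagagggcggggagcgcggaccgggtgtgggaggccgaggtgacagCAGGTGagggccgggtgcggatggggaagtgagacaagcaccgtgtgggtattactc
The CLDN7 and JUP windows each hold the letters in both readings, 5 bases apart. A match is a description of letters and not of binding. Binding was not measured in these libraries.

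Tight junction genes split between 3 log2 fold changes above 0 and 6 below among 9 tested, with a median of −0.06, and 0 of the 9 had groups that did not overlap. TJP3 (ENSG00000105289.15, chromosome 19, 3708109 to 3750813, forward strand) encodes ZO-3, a scaffold beneath the tight junction. It measured 24.9, 14.3 and 19.6 CPM in CAD-KO+IR and 43.3, 40.6 and 8.82 CPM in sgVec+IR. The first 2 controls lay above all knockout libraries and sgVec+IR 3 below them all. The log2 fold change was −0.66 (SE 0.543, adjusted p = 1.0, edgeR), −1.10 without sgVec+IR 3 (adjusted p = 0.220), −1.02 with sample weights (adjusted p = 2.18e-04) and −0.91 with 4 libraries (adjusted p = 3.53e-09). TJP3 was also the 1 member called by DESeq2 once sgVec+IR 3 was left out. CLDN7, a sealing claudin, had the same shape, with 57.4, 34.6 and 49.5 CPM in CAD-KO+IR and 66.0, 65.6 and 15.2 CPM in sgVec+IR. Its log2 fold change of −0.06 (SE 0.511) became −0.48 without sgVec+IR 3 and 0.22 without sgVec+IR 1, so its direction rests on which library is kept. CLDN4 had a log2 fold change of −0.34 (SE 0.339), and with 4 libraries −0.47 (adjusted p = 2.51e-07), a fold change under 1.5. OCLN (occludin), TJP1 (ZO-1), F11R (the adhesion molecule JAM-A), CLDN3 and CLDN12 had log2 fold changes between −0.30 and 0.07. CLDN2, which forms a cation pore, had 69, 44 and 64 counts against 48, 50 and 0, with overlapping groups. CLDN1 had 5, 3 and 6 counts against 2, 0 and 0 and was not tested, though its CPM values did not overlap either.

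Desmosome genes had log2 fold changes over 6 libraries from −0.30 (JUP) to 0.12 (PKP2), with a median of −0.00, and 0 of the 6 had groups that did not overlap. JUP, which encodes plakoglobin, a catenin of desmosomes and adherens junctions, measured 405.5, 263.9 and 364.1 CPM in CAD-KO+IR and 516.4, 546.2 and 211.8 CPM in sgVec+IR. With 4 libraries its log2 fold change was −0.46 (adjusted p = 1.05e-08), below the fold threshold. The desmosomal cadherins DSG2 and DSC2 lay the other way there, at 0.22 (adjusted p = 0.00444) and 0.24 (adjusted p = 0.0269), also under the fold threshold. DSP, the plakin that ties desmosomes to keratins, measured 576.6 ± 23.9 and 601.1 ± 43.9 CPM (SD, n = 3 each), a difference within the spread of the libraries.

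**Figure D3:**
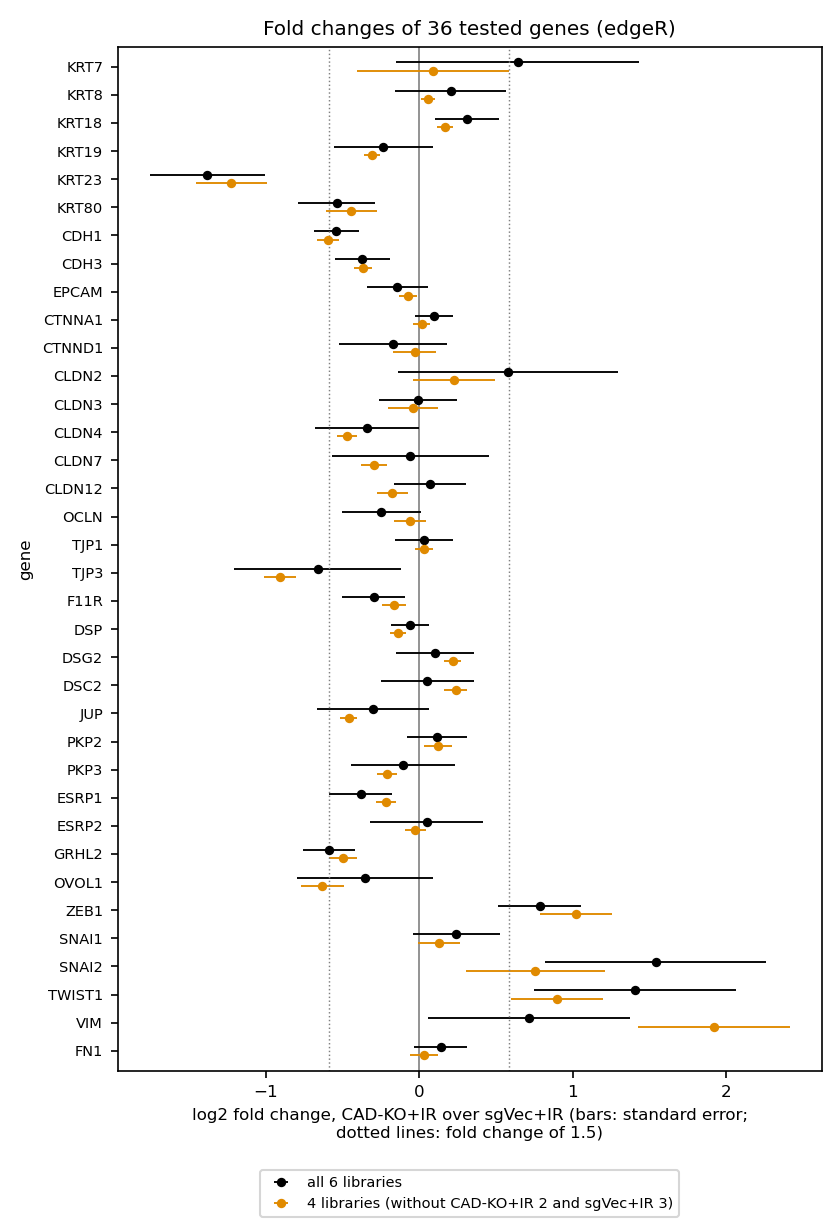
Log2 fold change, CAD-KO+IR over sgVec+IR, of the 36 tested genes (rows) with its standard error in edgeR, over all 6 libraries (black) and over 4 libraries (orange), with dotted lines at a fold change of 1.5. ZEB1, SNAI2, TWIST1 and VIM lie right of 0 and KRT23, CDH1, TJP3, GRHL2 and OVOL1 left of 0 in both fits.

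Among the 4 regulators of the epithelial state, 3 log2 fold changes were below 0 and the median was −0.37. GRHL2 (ENSG00000083307.12, chromosome 8), a grainyhead factor that activates CDH1 and claudin genes, measured 34.5, 28.4 and 33.5 CPM in CAD-KO+IR and 50.1, 46.3 and 48.2 CPM in sgVec+IR. The groups did not overlap, with 32.1 ± 3.31 against 48.2 ± 1.91 CPM (SD, n = 3 each) and a log2 fold change of −0.59 (SE 0.169, edgeR unadjusted p = 0.0105, adjusted p = 1.0). With 4 libraries it was −0.50 (adjusted p = 6.70e-05), a fold change under 1.5. ESRP1, a splicing factor of epithelial isoforms, measured 147.1, 176.6 and 166.3 CPM against 182.9, 182.3 and 273.1 CPM, again without overlap, though CAD-KO+IR 2 came close to the first 2 controls. Its log2 fold change was −0.38 (SE 0.206) and −0.16 without sgVec+IR 3. Its paralog ESRP2 had a log2 fold change of 0.05 (SE 0.368) with overlapping groups. OVOL1 (ENSG00000172818.10, chromosome 11, 65787022 to 65797219, forward strand), a zinc finger repressor of mesenchymal genes, measured 11.2, 8.86 and 10.9 CPM in CAD-KO+IR and 16.5, 18.0 and 4.87 CPM in sgVec+IR. As with TJP3, sgVec+IR 3 was the lowest and the other controls the highest. The log2 fold change was −0.35 (SE 0.446, adjusted p = 1.0, edgeR), −0.74 without sgVec+IR 3, −0.64 with sample weights (adjusted p = 0.00264) and −0.63 with 4 libraries (adjusted p = 9.28e-04).

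Keratins split evenly, with 3 log2 fold changes above 0 and 3 below. KRT23 (ENSG00000108244.17, chromosome 17, 40922696 to 40937634, reverse strand), a type I keratin at low level here, measured 2.76, 4.64 and 3.47 CPM in CAD-KO+IR and 6.73, 7.94 and 13.9 CPM in sgVec+IR. All controls lay above all knockout libraries, and the difference did not come from sgVec+IR 3 alone. The log2 fold change was −1.38 (SE 0.376, edgeR unadjusted p = 0.00801, adjusted p = 1.0). It was −1.01 without sgVec+IR 3, −1.13 with sample weights (adjusted p = 9.62e-04) and −1.22 with 4 libraries (adjusted p = 9.89e-05). KRT80 measured 8.62, 5.48 and 7.29 CPM against 10.2, 11.6 and 9.24 CPM, without overlap and with a log2 fold change of −0.54 (SE 0.252). KRT8 and KRT18, which pair into the filaments of simple epithelia, were abundant, as was KRT19, at 902.1 ± 231.7 CPM in CAD-KO+IR and 1060.1 ± 384.8 CPM in sgVec+IR (SD, n = 3 each). KRT8 measured 2044.5, 1308.1 and 1895.3 CPM in CAD-KO+IR and 1952.9, 1847.1 and 751.7 CPM in sgVec+IR, with overlapping groups and the lowest value of each in the library that stood apart. Its log2 fold change was 0.21 (SE 0.363) and became −0.12 without sgVec+IR 3. KRT18 measured 493.6, 445.8 and 487.5 CPM against 440.2, 435.2 and 273.6 CPM, without overlap but with CAD-KO+IR 2 close to the first 2 controls. Its log2 fold change was 0.31 (SE 0.206), and 0.12 without sgVec+IR 3. GENCODE release 29 names 50 pseudogenes of KRT8, 67 of KRT18 and 5 of KRT19, and the KRT8 and KRT18 genes overlap on opposite strands, so their counts are uncertain to the extent that the counting split such reads.

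**Figure D4:**
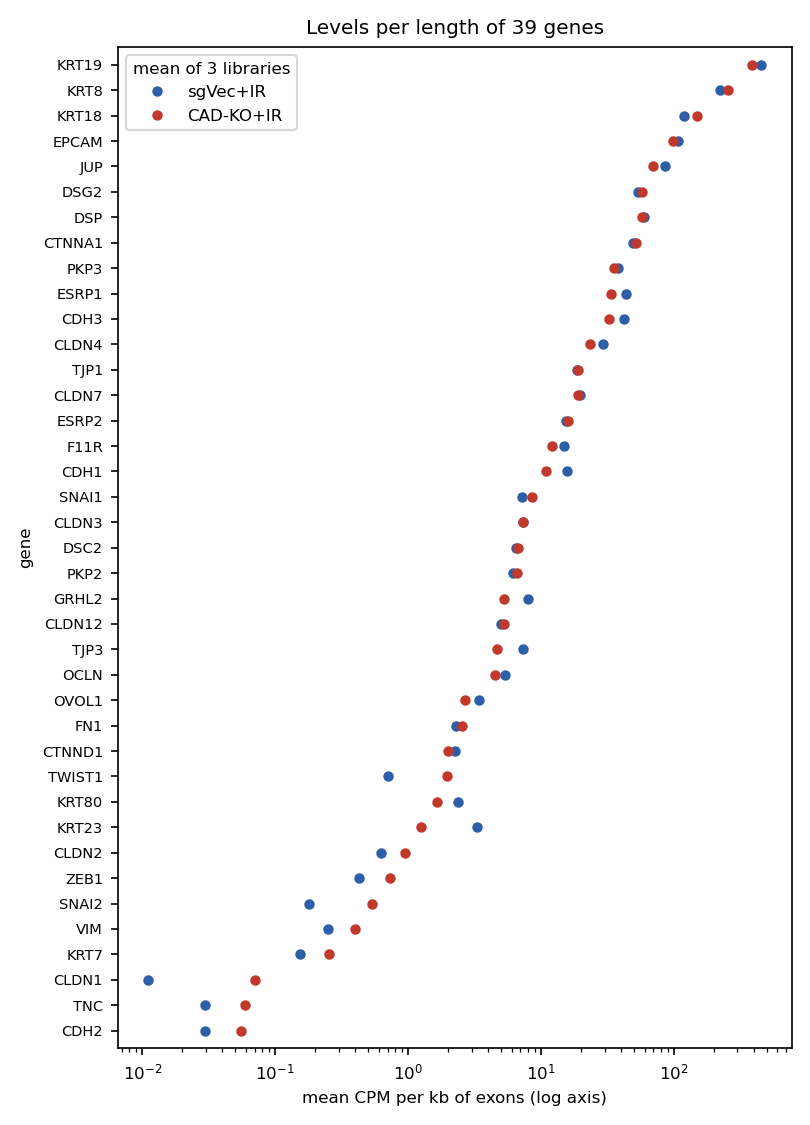
Mean CPM per kb of exons (log axis) of 39 genes in sgVec+IR (blue) and CAD-KO+IR (red), ordered by the CAD-KO+IR level, with ZEB2 left out because its sgVec+IR level is 0. Keratins 19, 8 and 18 and EPCAM lie at the top in both groups and ZEB1, SNAI2, VIM and CDH2 near the bottom.

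Compared per length of exon, the members spanned a wide range in both groups. The level of KRT19 was 386.2 CPM per kb in CAD-KO+IR and 453.8 in sgVec+IR, that of KRT8 254.2 and 220.5, and that of KRT18 147.8 and 119.0. EPCAM lay at 97.8 and 107.9 CPM per kb and CDH1 at 10.8 and 15.7. By contrast, the level of ZEB1 was 0.732 and 0.427 CPM per kb, that of SNAI2 0.533 and 0.180, that of VIM 0.399 and 0.250, and that of CDH2 0.0552 and 0.0298. KRT8, KRT18, KRT19 and EPCAM thus stood far above ZEB1, VIM and CDH2 in both groups, but KRT7, at 0.252 and 0.155 CPM per kb, lay below ZEB1 and VIM. The values of ZEB1 and SNAI2 that did not overlap between groups are low levels. SNAI1, at 8.59 and 7.23 CPM per kb, was the most abundant of the transition factors.

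Values of the members moved with GC content in the libraries that stood apart. Of the 15 members whose longest transcript has at least 55% GC, 15 were lower in sgVec+IR 3 than in the mean of sgVec+IR 1 and 2, with a median log2 difference of −1.19. Among the 18 members under 50% GC, 12 were higher there and 6 lower, with a median of 0.44. Across the 36 members the Pearson correlation of GC content with this difference was −0.51, as a description of genes that share libraries, and over 12913 genes it was −0.61. For CAD-KO+IR 2 against CAD-KO+IR 1 and 3 it was −0.78 across the members. TJP3 (63.2% GC), OVOL1 (58.3%) and TWIST1 (57.2%) were among the members low in sgVec+IR 3, whereas CDH1 (48.6%) was level there and ZEB1 (38.5%) and VIM (46.9%) were higher. With GC content as an offset in edgeR, a correction chosen after seeing the data, 0 members were DEGs. CDH1 then had a log2 fold change of −0.56 with an adjusted p of 0.0392, under the fold threshold, and ZEB1 0.83 with an adjusted p of 0.352. The log2 fold changes of the other members called with 4 libraries were then −1.41 for KRT23 (adjusted p = 0.302), −0.52 for TJP3 (0.517), −0.26 for OVOL1 (0.741), 1.48 for TWIST1 (0.467) and 0.71 for VIM (0.728). Across the 36 members, GC content correlated with the fold change at −0.15 over all 6 libraries and at −0.48 without sgVec+IR 3.

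**Figure D5:**
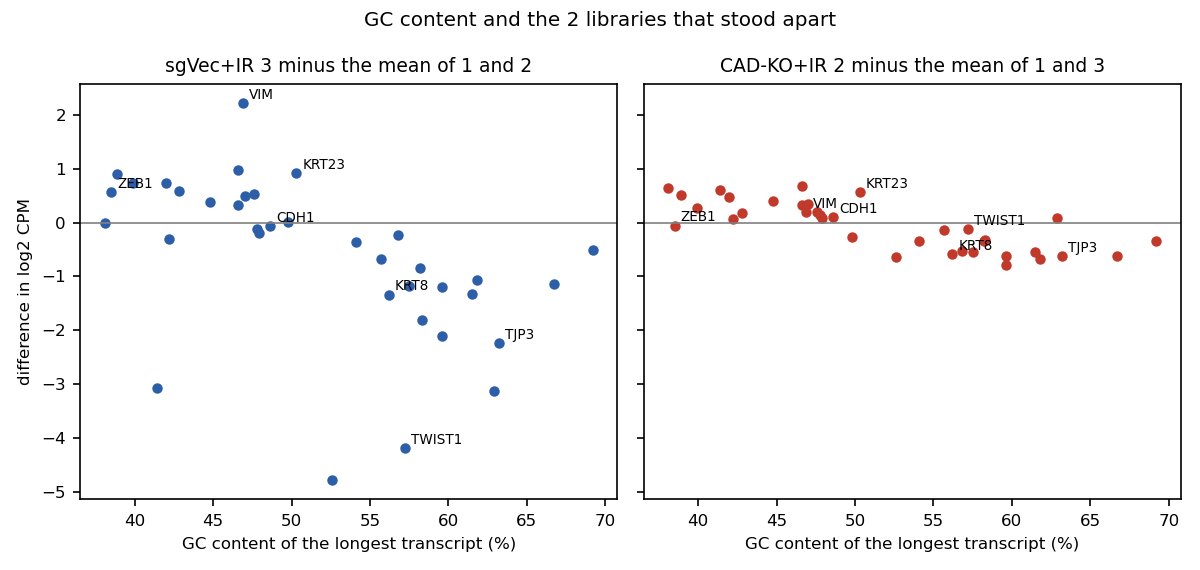
Difference in log2 CPM (vertical axis) between sgVec+IR 3 and the mean of sgVec+IR 1 and 2 (left), and between CAD-KO+IR 2 and the mean of CAD-KO+IR 1 and 3 (right), for 36 genes by the GC content of their longest transcript (%). Genes with at least 55% GC lie below 0 in the left panel, all 15 of them, and the right panel runs the same way over a smaller range.

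Other genes of the same 2 programs were counted from lists chosen by name. Of 52 other epithelial junction and regulator genes 46 were tested, with 12 log2 fold changes above 0, 34 below, a median of −0.10 and 0 DEGs in edgeR. In 6 of them the groups did not overlap (3 higher and 3 lower), near the 5.23% higher and 5.01% lower of all genes. NECTIN4, a nectin of the adherens junction, measured 10.6, 10.2 and 9.57 CPM in CAD-KO+IR and 16.1, 17.4 and 14.8 CPM in sgVec+IR (log2 fold change −0.67, SE 0.191). The grainyhead factor GRHL3 measured 2.44, 2.43 and 0.911 CPM against 7.46, 7.60 and 2.89 CPM (−1.63, SE 0.506), and ILDR1, a protein of tricellular junctions, 1.95, 1.90 and 3.25 CPM against 3.91, 3.90 and 3.74 CPM (−0.71, SE 0.327). These 3 lay lower in all CAD-KO+IR libraries, and the epithelial ETS factor EHF lay higher, at 5.85, 6.96 and 9.57 CPM against 3.67, 4.04 and 3.24 CPM (1.03, SE 0.295).

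Of 29 other mesenchymal genes 18 were tested, with 10 log2 fold changes above 0, 8 below, a median of 0.08 and 0 DEGs in edgeR. The factors SNAI3, TCF3 and FOXC2 of this list had log2 fold changes of −0.34, 0.08 and 0.51, with overlapping groups. THBS1, which encodes the matrix protein thrombospondin 1, was the 1 gene of both lists called by DESeq2. It measured 28.0, 25.4 and 24.9 CPM in CAD-KO+IR and 12.2, 12.6 and 14.7 CPM in sgVec+IR, far apart and without overlap, with a log2 fold change of 0.99 (SE 0.187, adjusted p = 0.550 in edgeR and 5.91e-04 in DESeq2).

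Markers of other cell types were low in both groups. The 8 fibroblast markers summed to 25.9 to 39.9 CPM in CAD-KO+IR and 12.3 to 48.9 CPM in sgVec+IR, mostly from COL1A1, with DCN and LUM at 0 in all libraries. The 6 leukocyte markers summed to 0.158 to 0.921 and 0 to 1.03 CPM, with CD3E at 0. The 4 endothelial markers summed to 1.0 to 2.22 CPM in CAD-KO+IR and 4.16 to 6.07 CPM in sgVec+IR, without overlap, and most of this was VWF, at 0.976, 0.685 and 1.42 against 2.45, 3.01 and 5.15 CPM (log2 fold change −1.77, SE 0.472), while PECAM1 had 0 to 11 counts. The part of these genes in the differences of the members was not tested.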

How the data were processed

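RNA-seq of HCT116 cells was analysed in 6 libraries, 3 of CAD-KO+IR and 3 of sgVec+IR. The raw counts per gene were made by the authors with featureCounts (v1.5.0-p3) after read cleaning with fastp, deposited without normalization, and used as given. All count columns were matched to samples by title. The labels list the molecule as genomic DNA beside an mRNA kit, and the submitters' processing notes name the mouse build mm10, although the gene identifiers are human. The aligner, annotation and strand setting are not given in the sources used here. Dose, time and knockout line come from the study's legend, the groups from the labels.

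The filterByExpr function, with a minimum count of 10 and a minimum total count of 15, kept 12925 of 20020 genes. In R 4.3.3, edgeR 4.0.16 (TMM, quasi-likelihood with legacy set to FALSE, Benjamini-Hochberg over all genes tested) was the main test, whereas the study used DESeq2 (v1.36.0). DEGs passed both an adjusted p below 0.05 and a fold change of 1.5. Alternatives were DESeq2 1.42.0, limma 3.58.1 (voom, with and without sample weights), other scalings, filters and dispersions, a replicate block and leaving out each library. A correction for GC content (lowess, span 0.3) and the fit of 4 libraries were added after seeing the data. Log2 CPM used a prior count of 2. Positions, lengths and GC content came from GENCODE release 29 (GRCh38), where 19823 identifiers matched with the version ignored. The scripts were tested on simulated data.

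The members and lists were chosen with earlier results of these data known. Values per library are given for members that were DEGs in edgeR or DESeq2, that did not overlap with a fold change of at least 1.5, or that became DEGs with sample weights or without sgVec+IR 3, for 9 standard markers (CDH1, EPCAM, KRT8, KRT18, VIM, CDH2, ZEB1, SNAI2 and FN1), for DFFB, and for single genes where a family is described. Some genes of the lists that this rule covers are not reported here.

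Totals of 14032994 to 19574144 counts per library put 3 counts at 0.153 to 0.214 CPM. Reads carry no molecular identifiers, so such limits cover counting error only.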

Additional observations from a re-analysis of the deposited data

How the results depend on the processing

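With 3 libraries a group, of which 1 in each stood apart, the count of DEGs among the members depended on how these libraries were treated. It was 0 higher and 0 lower in edgeR, DESeq2 and voom, under the other scalings, filters and dispersions, with the GC content correction and without any 1 library in edgeR. It was 3 higher and 4 lower with sample weights and again 3 and 4 with 4 libraries. At an unadjusted p under 0.05 with the 1.5-fold threshold kept it was 1 higher and 2 lower in edgeR, against 99 higher and 183 lower of all 12925 genes tested. DESeq2 gave 1 higher and 2 lower at that threshold. With the adjusted p and sgVec+IR 3 left out, DESeq2 called 1 lower (TJP3). The shares of all genes called by DESeq2 are not given here. The number of members whose groups did not overlap was 9, ran from 10 to 21 as single libraries were left out (14 without CAD-KO+IR 2, 21 without sgVec+IR 3), and was 26 with 4 libraries, where fewer libraries leave less room to overlap. Over all genes tested the groups did not overlap in 5972 of 13141 without sgVec+IR 3 and in 7488 of 13059 with 4 libraries. The count over all genes is not given here for the other left-out libraries, CAD-KO+IR 2 among them. DFFB had a log2 fold change of −1.02, and it passed the threshold in DESeq2 (−1.02), with sample weights (−0.92) and with 4 libraries (−0.996). Deviations from the group mean correlated across genes at 0.47, −0.54 and −0.38 between same-numbered libraries. The highest correlation, 0.55, was between CAD-KO+IR 2 and sgVec+IR 3, the libraries that stood apart. Such deviations follow these 2 libraries, so they cannot tell whether the numbers pair the samples. With the replicate block the members had 0 DEGs in edgeR and 0 in DESeq2, and the median log2 fold change moved from −0.03 to 0.02.

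Of the 36 tested members, 22 kept their direction under 18 alternatives and 14 reversed under at least 1. Apart from left-out libraries, the reversals were KRT7 at −0.13 with sample weights, CLDN3 at 0.00515 with no filter and 2.57e-04 with the replicate block, CLDN7 at 0.18 in voom, 0.13 with the replicate block and 0.0615 with the GC content correction, CLDN12 at −0.11 with sample weights and −0.17 with 4 libraries, and ESRP2 at −0.0482 and −0.0242 in those fits. With single libraries left out the log2 fold changes ran from −0.12 to 0.43 (KRT8), −0.26 to 0.0457 (EPCAM), −0.43 to 0.23 (CTNND1), −0.16 to 0.10 (CLDN3), −0.48 to 0.22 (CLDN7), −0.18 to 0.23 (CLDN12), −0.38 to 0.0389 (OCLN), −0.12 to 0.17 (TJP1), −0.0762 to 0.39 (DSG2), −0.14 to 0.43 (DSC2), −0.00199 to 0.24 (PKP2), −0.39 to 0.0833 (PKP3) and −0.25 to 0.27 (ESRP2). The cause of these reversals was not tested.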

Other observations

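In the fit of 4 libraries, which left out CAD-KO+IR 2 and sgVec+IR 3 and was chosen after seeing the data, the lists of other epithelial and mesenchymal genes held 8 DEGs, and the ones named here were chosen after their values were seen. The epithelial list had 1 higher and 4 lower of 46 tested. PPL, which encodes the desmosomal plakin periplakin, had a log2 fold change of −0.60 (edgeR adjusted p = 2.50e-09) beside GRHL3 at −2.14 (adjusted p = 5.21e-08) and NECTIN4 at −0.73 (adjusted p = 2.22e-04), with EHF higher at 1.0 (adjusted p = 0.00154). The mesenchymal list had 3 higher and 0 lower of 18 tested, among them THBS1 at 1.10 (adjusted p = 2.72e-09) and MMP14, which encodes a membrane metalloprotease, at 0.82 (adjusted p = 7.98e-05), while the log2 fold changes of the list split into 9 above and 9 below 0 with a median of −0.00. With sample weights it had 3 higher and 1 lower, ACTA2, which encodes smooth muscle actin, at −0.67 (adjusted p = 0.0192, limma-voom). S100A4, a calcium-binding protein, had lower CPM in all CAD-KO+IR than in all sgVec+IR libraries, at a 1.31-fold difference (edgeR unadjusted p = 0.0912). Over all genes the fit of 4 libraries called 1.06% higher and 2.30% lower, and the fit with sample weights 1.64% higher and 3.51% lower. With all 6 libraries PPL and MMP14 had log2 fold changes of −0.48 and 0.97, both with an adjusted p of 1.0 in edgeR, and their groups overlapped.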
